A study of Rattus norvegicus with 90 samples.

Results

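The data described here are the RNA-seq libraries of primary rat hepatocytes exposed to the high dose of thioacetamide-S-oxide, 5 collected at 24 h and 5 at 9 h after the compound was added. They were taken by their labels (cell type, dose and duration) and make up 10 of the 90 libraries of the series, which holds 5 libraries for each of 18 conditions. The cells were cryopreserved Sprague-Dawley hepatocytes, bought from a supplier, plated on collagen and cultured before 0.125 mM thioacetamide-S-oxide was added to the maintenance medium. The comparison groups were hepatocytes given 0.025 mM (the low dose) or medium alone (vehicle) for the same times, and renal proximal tubular epithelial cells at 0.5 mM and cardiomyocytes at 1.5 mM, their own high doses. Vehicle cultures of renal cells and cardiomyocytes at 9 and 24 h served to define transcript lists and, at 9 h, to judge likeness to each cell type. Nothing in the labels or the methods says how many animals or cell lots the 5 libraries of a group came from, so the p-values below measure the spread between libraries, which may be technical. Cells collected at 24 h had been both exposed and cultured for longer than those collected at 9 h, and these cannot be told apart within the high dose. Library numbers run from MS-91 to MS-105 and from MS-111 to MS-120 in the other hepatocyte groups. No library of the series carries a number between MS-105 and MS-111. The vehicle libraries at 24 h carry MS-181 to MS-185, after the last cardiomyocyte library. What the numbers record is not given in the sources used here, so separate handling of these libraries cannot be told apart from their being vehicle cultures at 24 h. The deposited tables of the high-dose hepatocytes at 24 h are themselves numbered differently from their labels, and their link to MS-116 to MS-120 rests on the deposit's record alone.

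Thioacetamide is a liver toxicant that is harmful only after oxidation, and thioacetamide-S-oxide is the first oxidized metabolite. Enzymes of the hepatocyte oxidize it again to a reactive product that binds to proteins and lipids. Hepatocytes make most plasma proteins and most enzymes of drug, bile acid and nitrogen metabolism, and they are known to lose part of this specialized expression during culture on flat supports. These statements are background and were not tested here.

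The authors deposited the estimated count that Kallisto gave to each target of each library. Of the 65166 targets, 40071 are Ensembl transcripts and 25095 are genomic intervals. The tests use the transcripts, and none of them could be paired with a gene name from the tables at hand (0 of 40071 matched), so transcripts are described by identifier and by where else in the series they are expressed. Levels are counts scaled to a common library total (CPM) after TMM normalization. The high-dose libraries held 25381847 to 35811769 estimated counts at 9 h (median 28335819) and 22285879 to 39608681 at 24 h (median 25405673). Counting error is therefore small for all but the least abundant transcripts.

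The 10 libraries resembled hepatocytes, judged by the other cell types of the series. Over 18981 transcripts, the median Spearman correlation of each with the vehicle libraries at 9 h was 0.954 to 0.977 for hepatocytes, 0.687 to 0.726 for renal cells and 0.636 to 0.674 for cardiomyocytes. Defining markers such as albumin could not be looked up without gene names. A list of 409 hepatocyte-enriched transcripts, which had at least 10 CPM in vehicle hepatocytes at 9 h and at least 32 times the level of both other cell types, stood in for them. These transcripts took 12.2% to 17.2% of the transcript counts of the 10 libraries, against 0.0568% to 0.110% in high-dose renal cells and cardiomyocytes. Library MS-120, at 24 h, stood apart from the other 4 of its group. Its median Spearman correlation with them was 0.9705, while the other 4 had 0.9887 to 0.9895 with their own group. Its mean cDNA fragment length, read from the effective lengths, was 146.9 bases, against 165.3 to 171.3 in the other 4. It was kept, and the results below are given without it where that changes them.

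Between 9 and 24 h, 2614 of the 16639 transcripts tested were differentially expressed (DEGs, counted here per transcript), 1431 higher and 1183 lower at 24 h. A transcript counted as a DEG when edgeR's quasi-likelihood test gave an adjusted p (Benjamini-Hochberg) no higher than 0.05 and its change was about 1.5-fold or more, the study's cut-off of 0.41 on the natural-log scale. The DEGs were 15.7% of the transcripts tested, 8.60% higher and 7.11% lower. The mean absolute log2 fold change over all tested transcripts was 0.41 (0.77 with no filter beyond 1 count), and 8139 (48.9%) had an unadjusted p under 0.05. Scaling by library size alone, in place of TMM, gave 1865 higher and 979 lower, which moved the higher share from 54.7% to 65.6% of the DEGs. When each of the 10 libraries was left out in turn, 2038 of the 2614 DEGs were called in every fit and 0 were called in the opposite direction in any fit.

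Most DEGs changed by less than 2-fold. A change of at least 2-fold was reached by 577 higher and 480 lower DEGs, of at least 4-fold by 88 and 71, of at least 8-fold by 29 and 10, and of at least 16-fold by 12 and 2. Across all tested transcripts, 5333 (32.1%) had all 5 libraries of one time on one side of all 5 of the other, 2663 with the 24 h libraries above and 2670 with them below. Of the DEGs, 2218 (84.9%) were separated in this way.

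The DEGs that rose and those that fell lay at different levels of expression. Of the 4160 transcripts with the lowest mean level, 14.0% rose and 7.36% fell, whereas of the 4160 with the highest level 3.15% rose and 6.37% fell. Together, the 1431 transcripts that rose took 2.65% ± 0.05 of the transcript counts at 9 h and 5.15% ± 0.22 at 24 h (SD, n = 5 each), and the 1183 that fell went from 11.3% ± 0.31 to 6.32% ± 0.35. These shares describe the DEGs, which were chosen on the same libraries. Bins of equal size by transcript length differed less, with 7.85% to 9.24% higher and 6.26% to 7.97% lower in each.

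**Figure D1:**
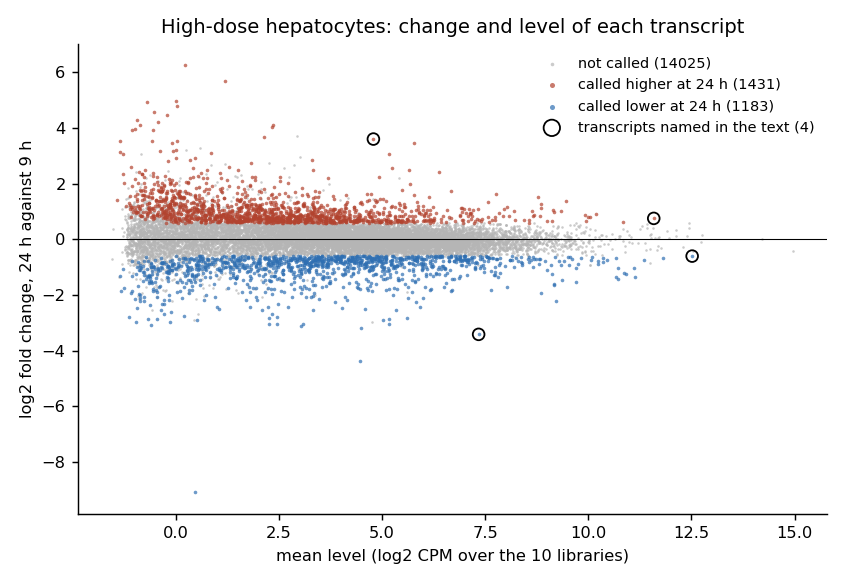
Each point is 1 of 16639 transcripts in high-dose hepatocytes, with its mean level over the 10 libraries (log2 CPM, horizontal) and its log2 fold change at 24 h against 9 h (vertical); red points are the 1431 DEGs that were higher, blue points the 1183 that were lower, and circles mark the 4 transcripts named in the text. The red points crowd toward low levels, while blue points reach into the abundant transcripts on the right.

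Transcripts that mark hepatocytes within the series were lower at 24 h in many cases. Of the 409 hepatocyte-enriched transcripts, all of which passed the filter on low counts, 221 fell and 11 rose, or 54.0% and 2.69%, against 7.11% and 8.60% of all transcripts tested. Their median log2 fold change was −0.68 (quartiles −1.08 and −0.26), where the median of all tested transcripts was 0.02. In 277 of them all 5 libraries at 24 h were below all 5 at 9 h, and in 22 all 5 were above, against 2670 and 2663 of the 16639 transcripts tested. In CPM scaled over the whole series, the median member went from 64.8 to 39.6 CPM.

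The hepatocyte-enriched transcripts together took 16.82%, 16.73%, 17.16%, 16.02% and 16.94% of the transcript counts in the 5 libraries at 9 h, and 12.62%, 13.20%, 13.29%, 12.26% and 12.24% in the 5 at 24 h. The groups do not overlap, and the lowest library at 9 h is above the highest at 24 h. The mean was 16.7% ± 0.43 at 9 h and 12.7% ± 0.50 at 24 h (SD, n = 5 each). The share was lower at 24 h at every dose: it went from 15.8% ± 0.16 to 12.5% ± 0.57 in low-dose cultures, and in vehicle cultures from 15.01% ± 0.57 to 6.53% ± 0.22 over 4 libraries. The fifth vehicle library at 24 h, MS-183, had only 8.33% of its counts on transcripts and stood at 1.04%; with it the vehicle mean at 24 h was 5.43% ± 2.46. In bulk RNA, fewer hepatocytes and less of these transcripts per hepatocyte cannot be told apart.

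The list was drawn from cultures at 9 h, which can favour transcripts that are high at that time, so it was drawn again at 24 h, after the data had been seen. Of the 349 transcripts enriched to the same degree in low-dose hepatocytes at 24 h against vehicle renal cells and cardiomyocytes at 24 h, 45.6% fell and 4.87% rose, against 7.11% and 8.60% of all transcripts, with a median of −0.54. Stricter enrichment gave a lower median: −0.51 for the 633 transcripts enriched at least 8-fold, and −0.74 for the 262 that passed a cut 4 times as strict as the main list's.

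**Figure D2:**
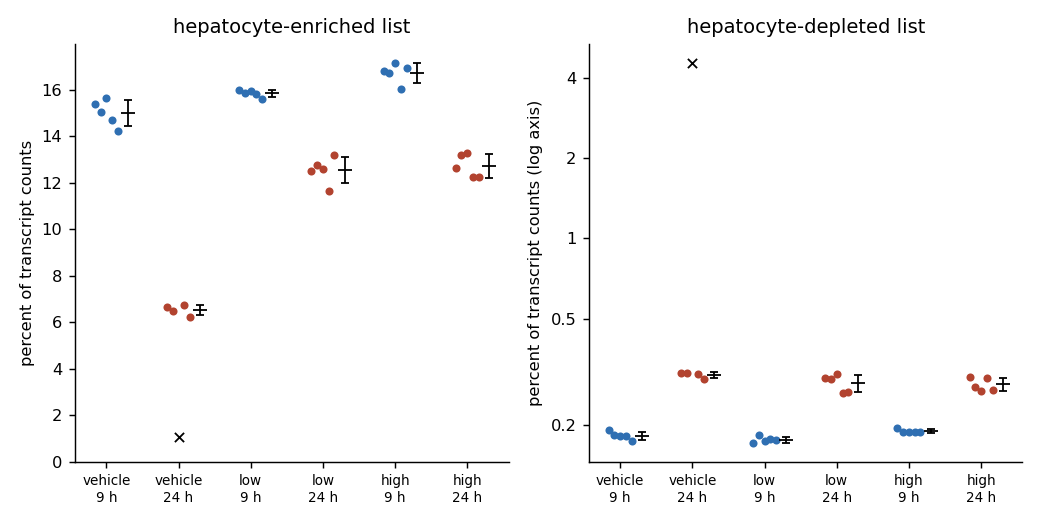
Percent of the transcript counts of each hepatocyte library taken by the 409 hepatocyte-enriched (left, linear axis) and the 752 hepatocyte-depleted transcripts (right, log axis), by dose and time. Points are libraries, bars beside them the mean and SD without vehicle library MS-183, which is the cross; at every dose the hepatocyte-enriched share is lower at 24 h, at the high dose 12.2% to 13.3% against 16.02% to 17.2%.

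Transcripts of the opposite kind, scarce in hepatocytes and common in the other cells, summed to a higher share at 24 h. A list of 752 hepatocyte-depleted transcripts, added after the data were seen, had at least 10 CPM in vehicle renal cells and in vehicle cardiomyocytes at 9 h and at most an eighth of both in hepatocytes. Of these, 489 passed the filter in the high-dose hepatocytes, where 36.6% rose and 4.29% fell, against 8.60% and 7.11% of all transcripts, with a median log2 fold change of 0.49. Members that passed only because they were high at 24 h had to differ, so the sum over all 752 is the safer measure. They took 0.188% to 0.195% of the transcript counts at 9 h and 0.268% to 0.302% at 24 h, with no overlap. Of the 752, 5 were at 0 in all 10 libraries. In low-dose hepatocytes the sum went from 0.176% ± 0.005 to 0.287% ± 0.022 (SD, n = 5 each), and in vehicle cultures from 0.183% ± 0.006 to 0.309% ± 0.007 without MS-183 (n = 4), or 1.15% ± 1.89 with it. The same rule applied at 24 h gave 639 transcripts, whose sum at the high dose went from 0.147% ± 0.003 to 0.182% ± 0.019, a smaller difference but without overlap (0.144% to 0.151% and 0.162% to 0.210%).

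Transcripts enriched in a single other cell type stayed scarce. The 130 renal-enriched transcripts summed to 0.0086% to 0.0096% of the counts at 9 h and 0.0126% to 0.0164% at 24 h, against 2.17% to 2.21% in high-dose renal cells at 9 h. Of these 130, 1 was at 0 in all 10 libraries and 42 passed the filter, of which 14 rose and 5 fell (33.3% and 11.9%, against 8.60% and 7.11% of all transcripts). Scarce members can pass the filter through the group where they are high, so these counts are a description only. The cardiomyocyte-enriched transcripts summed to 0.0032% to 0.0036% at 9 h and 0.0046% to 0.0088% at 24 h, and 15 of them were at 0 in all 10 libraries. The highest of these sums at 24 h was in library MS-116. Whether other cells of the liver were present could not be examined, because the series holds no such cells and their markers could not be matched. Transcripts expressed alike in all 3 cell types had a median near 0. Of the 4865 broad transcripts (at least 10 CPM in all 3 and within 2-fold of each other), 2.47% rose and 2.22% fell, with a median of −0.02.

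The next lists ask what became, at the high dose, of transcripts that had responded to the compound early in other libraries. At 9 h the low dose had changed 387 transcripts relative to vehicle, 202 of them lowered and the rest raised, in cultures that do not enter the present comparison. Of the 202 lowered transcripts, 188 were tested in the high-dose libraries, and 64 rose from 9 to 24 h while 9 fell (34.04% and 4.79%, against 8.60% and 7.11% of all transcripts). Their median log2 fold change was 0.35. Their summed share of the counts was 0.177% to 0.201% at 9 h and 0.250% to 0.305% at 24 h, without overlap. Of the raised transcripts, all but 1 were tested, and 36 fell while 14 rose (19.6% and 7.61%), with a median of −0.21. Scaled by library size alone, 31 fell and 22 rose, with a median of −0.13. Their summed share was 1.052% to 1.204% at 9 h and 0.916% to 1.052% at 24 h. The lowest library at 9 h and the highest at 24 h were thus level. In both lists the median change was thus opposite in sign to the early response to the low dose. Whether these transcripts had responded at 9 h in the high-dose cultures was not tested here. The lists were not matched for level, and of the 4160 transcripts with the lowest mean level 14.0% rose and 7.36% fell.

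For the early response of renal cells, the medians of both lists were close to that of all transcripts, while calls in both directions made up larger shares than the 8.60% higher and 7.11% lower of all transcripts. Of the 1454 transcripts raised by the high dose in renal cells at 9 h, 1087 were tested here, and 13.1% rose and 10.9% fell (median 0.02). Of the 1949 lowered in renal cells, 1260 were tested, and 13.0% rose and 14.0% fell (median 0.01).

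**Figure D3:**
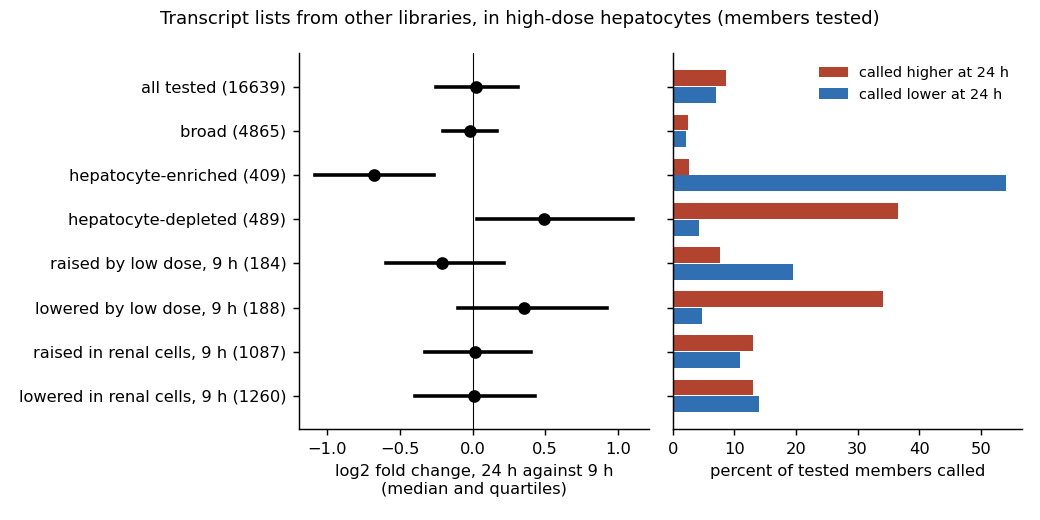
Change of transcript lists in high-dose hepatocytes between 9 and 24 h, with the number of members tested in brackets. Left, the median log2 fold change and its quartiles; right, the percent of tested members called higher (red) or lower (blue) at 24 h. The hepatocyte-enriched list has its median at −0.68 with 54.0% lower, and the list lowered by the low dose at 9 h has its median at 0.35 with 34.04% higher.

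Transcripts were named by a fixed rule, among DEGs whose libraries were fully separated and whose mean level reached 3 on the log2 CPM scale: the largest log2 rise, the largest log2 fall, and then the largest gain and the largest loss in CPM. The largest rise under this rule was that of ENSRNOT00000005677, a transcript of 1952 bases that ranked 17 by size of log2 change among all DEGs that rose. It stood at 3.32, 3.69, 4.77, 4.82 and 4.36 CPM in the 5 libraries at 9 h and at 57.3, 46.5, 55.2, 51.5 and 43.8 CPM at 24 h. All libraries at 24 h were far above all at 9 h. The log2 fold change was 3.60 ± 0.12 (SE, n = 5 against 5, edgeR quasi-likelihood, adjusted p = 1.82e-08). The transcript is a hepatocyte-depleted one: on a scale set over all 90 libraries it had 177.1 ± 3.1 CPM at 9 h and 155.3 ± 13.5 at 24 h in high-dose renal cells, and 118.2 ± 2.1 and 119.4 ± 7.4 CPM in high-dose cardiomyocytes. The log2 fold change in renal cells was −0.18 ± 0.05 (SE, edgeR adjusted p = 0.014), smaller than the fold-change threshold, and in cardiomyocytes it was 0.03 ± 0.04 (edgeR adjusted p = 0.71). On the scale of all 90 libraries its level in hepatocytes at 24 h was highest at the high dose, 53.4 ± 6.1 CPM, against 20.2 ± 4.9 at the low dose and 12.7 ± 1.0 in 4 vehicle libraries (SD).

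The largest fall under the rule was that of ENSRNOT00000008840, of 486 bases, which ranked 3 by size of log2 change among all DEGs that fell. Its levels at 9 h were 280.4, 277.5, 283.2, 310.7 and 328.3 CPM, and at 24 h they were 27.0, 26.7, 29.2, 22.1 and 33.8 CPM. The groups are far apart, with a log2 fold change of −3.42 ± 0.11 (SE, edgeR, adjusted p = 1.32e-08). Hepatocytes were the only cells of the series with more than traces of it: the highest mean of any renal or cardiomyocyte condition was 0.037 CPM. On the scale of all 90 libraries its level at 9 h was 313 ± 24.2 CPM at the high dose, 238 ± 19.2 at the low dose and 224 ± 17.7 in vehicle cultures. At 24 h it was 29.1 ± 4.4, 15.98 ± 0.69 and 20.3 ± 3.7 CPM on that scale, the last without MS-183.

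ENSRNOT00000025462, of 1643 bases, gained the most counts. It had 2355, 2257, 2114, 2313 and 2406 CPM at 9 h and 3771, 4016, 3875, 3764 and 3841 CPM at 24 h, a log2 fold change of 0.75 ± 0.05 (SE, edgeR, adjusted p = 6.74e-07). In high-dose renal cells it went from 358 ± 10.8 to 508 ± 13.9 CPM on the scale of all 90 libraries (log2 fold change 0.52, edgeR adjusted p = 6.32e-07), a change smaller than the fold-change threshold. In high-dose cardiomyocytes the log2 fold change was −0.02 (edgeR adjusted p = 0.80).

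ENSRNOT00000045628, of 2324 bases, lost the most. Its levels were 7363, 6900, 7843, 6626 and 6596 CPM at 9 h, and 5005, 4992, 5098, 4342 and 3790 CPM at 24 h. The log2 fold change of −0.60 ± 0.09 (SE, edgeR, adjusted p = 0.000265) lies just past the 1.5-fold threshold. It fell short of that threshold without library MS-101, MS-103, MS-119 or MS-120 (−0.59, −0.57, −0.58 and −0.54) and when scaled by library size alone (−0.52) or by the upper quartile (−0.56). In the fit of transcripts and intervals together it was −0.59, also just short. On the scale of all 90 libraries, where high-dose hepatocytes had 7472 ± 578 CPM at 9 h, high-dose renal cells had 0.13 ± 0.11 CPM. High-dose cardiomyocytes had 49.0 ± 1.8 CPM at 9 h and 62.3 ± 5.7 at 24 h (SD, n = 5 each), with a log2 fold change of 0.36 (edgeR adjusted p = 0.0054), smaller than the fold-change threshold.

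**Figure D4:**
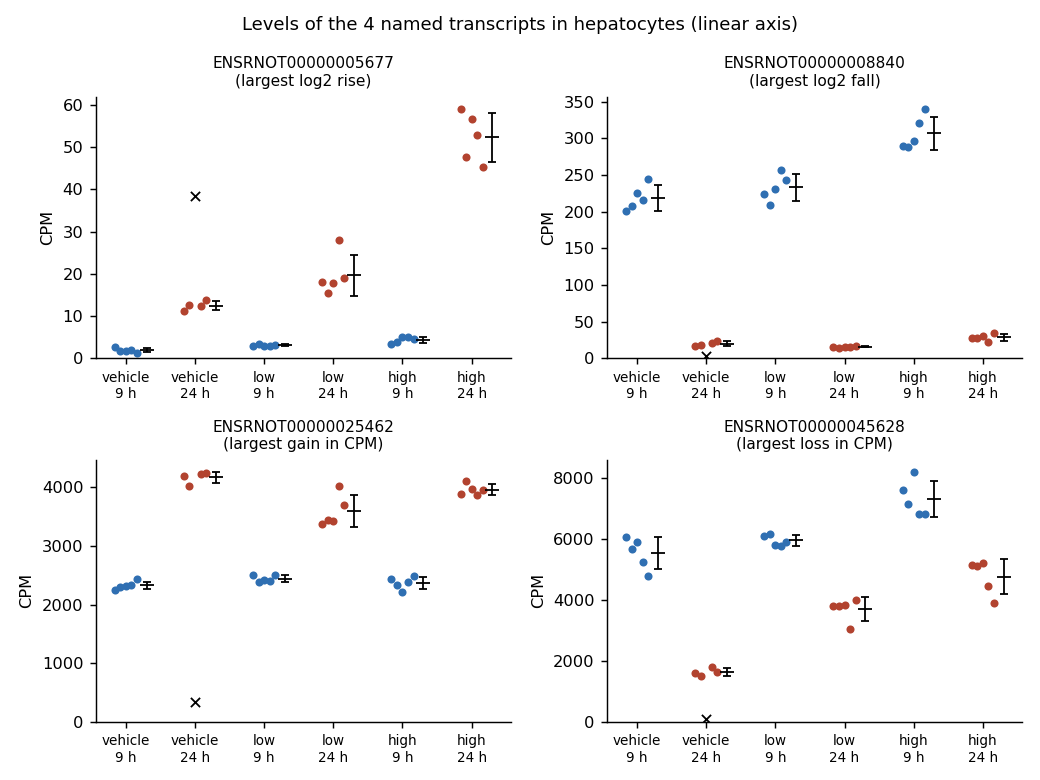
Levels (CPM, linear axes from 0) of the 4 named transcripts in the 30 hepatocyte libraries, scaled over the hepatocyte libraries, by dose and time; blue points are 9 h, red points 24 h, the cross is vehicle library MS-183, and bars give the mean and SD without it. The levels of ENSRNOT00000005677 at 24 h are highest at the high dose, and ENSRNOT00000045628 remains higher at 24 h in dosed than in vehicle cultures.

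The low dose offers a comparison that shares no library with the high dose. At the low dose, 2539 of 16755 transcripts were DEGs between 9 and 24 h (15.2%), 8.96% higher and 6.20% lower. The changes at the 2 doses correlated over 16234 transcripts with r = 0.68 (Pearson) and rho = 0.66 (Spearman), given as a description since transcripts are not independent replicates. DEGs in the same direction at both doses numbered 1346, with 742 higher and 604 lower, which is 53.1% of the high-dose and 55.6% of the low-dose DEGs tested at both. DEGs in opposite directions numbered 11. Among the 1346, the median absolute log2 fold change was 1.01 at the high and 0.97 at the low dose, and 715 (53.1%) changed more at the high dose.

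**Figure D5:**
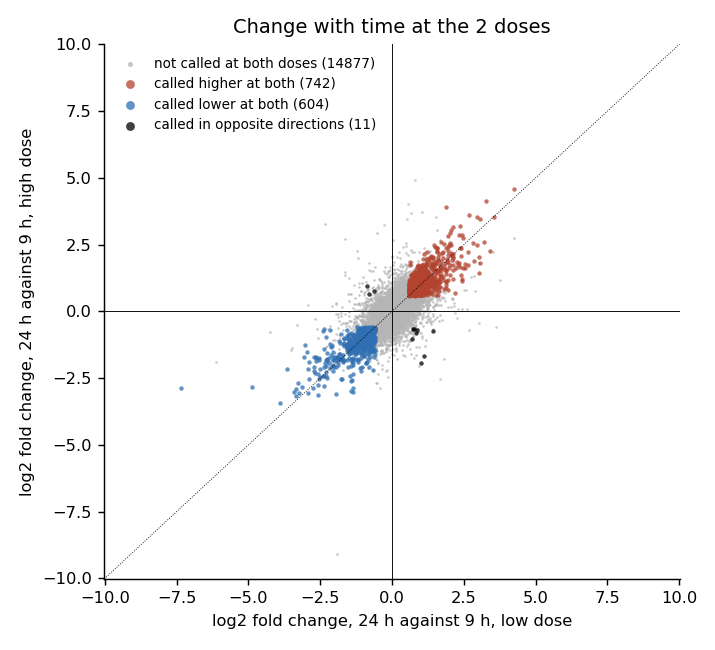
Log2 fold change at 24 h against 9 h of 16234 transcripts in hepatocytes at the low dose (horizontal) and the high dose (vertical); red and blue points are the 742 and 604 DEGs in the same direction at both doses, black points the 11 in opposite directions, and the dotted line marks equal change. Most coloured points lie along the dotted line.

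A test of the difference between the doses, as an interaction in 1 edgeR fit over 20 libraries, called 712 of 17710 transcripts (4.02%). For 289 (1.63%) the change from 9 to 24 h was more positive at the high dose, and for 423 (2.39%) it was more negative. The balance turned with no fold-change threshold, which gave 1191 more positive and 1071 more negative. Of the 409 hepatocyte-enriched transcripts, 67 (16.4%) had a more negative change at the high dose and 8 (1.96%) a more positive change. The median of its differences was −0.08, and that of all transcripts 0.03. At the low dose itself, 44.5% of the 409 fell and 9.05% rose, against 6.20% and 8.96% of all transcripts tested, with a median of −0.48. The named transcripts were chosen by their change in the high-dose libraries, which enter this test again. The choice favours a larger change at the high dose, so their differences are a description only. Of these transcripts, ENSRNOT00000005677 rose by 2.70 ± 0.15 on the log2 scale at the low dose. The difference of 0.92 ± 0.20 (SE) passed the test (edgeR interaction, adjusted p = 0.0042). For ENSRNOT00000008840 the fold change at the low dose was −3.89 ± 0.06, and the difference of 0.48 ± 0.12 (edgeR adjusted p = 0.011) was smaller than the fold-change threshold. The differences of ENSRNOT00000025462 (0.19 ± 0.06, edgeR adjusted p = 0.055) and ENSRNOT00000045628 (0.08 ± 0.11, edgeR adjusted p = 0.74) did not pass.

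The change from 9 to 24 h at the high dose was also compared with that of vehicle cultures, whose libraries at 24 h are numbered apart from all other hepatocyte libraries. Any separate handling of that group would enter the vehicle change and the interaction alike, and it cannot be told apart from dose here. Without vehicle library MS-183, the interaction of time with high dose against vehicle was called for 5822 of 17898 transcripts (32.5%), 3327 with a more positive and 2495 with a more negative change at the high dose. With that library the count was 4268. The mean absolute log2 fold change between 9 and 24 h was 0.73 in these vehicle cultures, against 0.41 at the high and 0.39 at the low dose. ENSRNOT00000045628 fell by 1.76 on the log2 scale in vehicle cultures, and its change at the high dose was 1.16 ± 0.12 more positive (SE, edgeR interaction, adjusted p = 2.98e-07). ENSRNOT00000005677 rose by 2.70 ± 0.17 in vehicle cultures, 0.91 ± 0.20 less than at the high dose (edgeR interaction, adjusted p = 0.00074). As it was chosen for its rise at the high dose, the choice favours this difference, which is a description only. The differences of ENSRNOT00000008840 (0.03 ± 0.15, edgeR adjusted p = 0.90) and ENSRNOT00000025462 (−0.10 ± 0.05, edgeR adjusted p = 0.13) did not pass.

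The same interval was examined in the other cell types. High-dose renal cells had 2397 DEGs between 9 and 24 h among 17941 transcripts (13.4%), and high-dose cardiomyocytes 859 among 18187 (4.72%). Of the transcripts tested in both, 268 DEGs changed in the same direction in hepatocytes and renal cells (12.6% and 15.5% of each list) and 7.40% of the hepatocyte DEGs were renal DEGs in the opposite direction. Of the 15189 transcripts tested in both hepatocytes and cardiomyocytes, 2132 were hepatocyte DEGs and 582 were cardiomyocyte DEGs, counting both directions. Of these, 92 (4.32% and 15.8% of each list) had the same direction and 74 (3.47% of the hepatocyte DEGs) the opposite. The Pearson r of the log2 fold changes was 0.12 with renal cells over 15260 transcripts and 0.01 with cardiomyocytes over 15189, again as descriptions. The doses of the 3 cell types differ, so these values are set side by side only.

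Single measures of the libraries were compared by a two-sided exact permutation test, whose smallest possible p is 0.0079 for 5 against 5, with adjustment over the 4 measures. The share of counts on transcripts was 91.7% ± 1.19 at 9 h and 93.2% ± 0.89 at 24 h (SD, n = 5 each, exact p = 0.071, adjusted 0.14). Transcripts with at least 5 counts numbered 18130 ± 321 and 18354 ± 557 (exact p = 0.50, adjusted 0.50). The 100 most abundant transcripts took 27.7% ± 0.54 and 26.7% ± 1.50 of the transcript counts (exact p = 0.20, adjusted 0.26). Without library MS-120 the value at 24 h was 26.03% ± 0.38 (n = 4, exact p = 0.016, not adjusted). The mean fragment length was 171.3 ± 4.2 and 163.2 ± 9.4 bases (exact p = 0.056, adjusted 0.14), and 167.3 ± 2.8 bases at 24 h without MS-120 (exact p = 0.11). None of the 4 passed after adjustment. The part of fragment length in the DEGs was not tested. Without MS-120 there were 2712 DEGs, and 220 of the 409 hepatocyte-enriched transcripts fell.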

How the data were processed

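The authors pseudo-aligned paired reads of poly-A-enriched libraries to the rat transcriptome (Rnor_6.0) with Kallisto (0.42.4 in the submitters' processing notes) and deposited 1 table per library with the estimated counts and TPM of all targets. TPM and the genomic intervals were not used for the main tests. Estimated counts need not be whole, since reads shared by transcripts are divided among them, and they were rounded. Near-identical transcripts can therefore trade counts.

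Groups came from the sample labels, and each table's sample from the deposit's record. For the high-dose hepatocytes at 24 h the tables' own numbering does not repeat the labels' MS numbers, so their library names could not be checked against it. The tests were those of edgeR 4.0.16 under R 4.3.3 (TMM, filterByExpr, glmQLFit, glmQLFTest) and Benjamini-Hochberg adjustment over all transcripts tested. The study's own test (Sleuth) needs resampled estimates that were not used here. A standard error is the size of the log2 fold change divided by the square root of F. DESeq2 1.42.0 and limma 3.58.1 served as alternatives. Permutation tests and plots used Python with scipy. The functions were tested on simulated data. The members and lists were chosen with earlier results of these data known. Named transcripts followed the rule stated in the results. Lists of genes by symbol had been drawn up but could not be matched. Vehicle library MS-183 was left out of the vehicle interaction, with the fit that includes it as an alternative.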

Additional observations from a re-analysis of the deposited data

Results flagged for a closer look

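Each measure of the 10 high-dose libraries, the CPM of the named transcripts and the shares of 4 lists were searched for single libraries far from the rest of their group. This was found in 4 of 24 groups of 5, and chance alone gives it in about 1 of 20. At 24 h, library MS-120 had 29.3% of its transcript counts in the 100 most abundant transcripts, against 25.6% to 26.4% in the other 4, and a mean fragment length of 146.9 bases, against 165.3 to 171.3. At 9 h, library MS-101 had 0.195% of its counts in the hepatocyte-depleted list, against 0.188% to 0.189%. At 24 h, library MS-119 had 0.305% in the transcripts that the low dose had lowered at 9 h, against 0.250% to 0.265%.

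Changes that differed between doses by the interaction test numbered 712 against the low dose and 5822 against vehicle. The second count rests on the vehicle libraries at 24 h, numbered apart from the other hepatocyte libraries, so dose and separate handling cannot be told apart in it. Among the named transcripts these were ENSRNOT00000005677, with a log2 difference of 0.92 against the low dose and 0.91 against vehicle, and ENSRNOT00000045628, with 1.16 against vehicle. Both transcripts were chosen by their change in the high-dose libraries, which enter these tests again, so their differences are a description only.

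The genomic intervals, which the comparisons leave out, also changed: 1650 of the 9280 tested were called between 9 and 24 h (17.8%), 893 higher and 757 lower (edgeR, same thresholds). The intervals were not tested in low-dose or vehicle hepatocytes.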

How the results depend on the processing

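The count of 2614 DEGs at the high dose stayed within 1.5 times under DESeq2 (2654), upper-quartile (2701) or library-size scaling (2844), weaker filters (2765 and 2827), limma (2339), all hepatocyte groups in 1 fit (2961), and transcripts with intervals (2699). It was 1187 of 6531 with only transcripts of whole-number counts, 6778 with no fold-change threshold and 1057 at 2-fold. Leaving out each library gave 2479 to 2712. The mean absolute log2 fold change of 0.41 was 0.77 with no filter, 0.34 with limma and 0.49 with all hepatocyte groups in 1 fit. The difference from the low dose had 712 calls, 2262 with no threshold (52.7% more positive, against 40.6%) and 260 at 2-fold, and 627 to 843 without single libraries. The difference from vehicle had 5822, 8792 and 3400, and 5593 to 6021. DEGs shared by the doses numbered 474 at 2-fold and 1268 to 1372 without single libraries, with r from 0.65 to 0.67. The median of the hepatocyte-enriched list was −0.51 with 8-fold enrichment, −0.54 when defined at 24 h, −0.59 by library size alone, and −0.70 to −0.65 without single libraries. Alternatives other than the fold thresholds and whole-number counts left between 202 and 225 of its members lower. The 3 lists added after the data were seen kept the sign of their median in all fits, with −0.57 to −0.46 for the hepatocyte-enriched list drawn at 24 h and 0.35 to 0.64 and 0.30 to 0.66 for the hepatocyte-depleted lists drawn at 9 and 24 h. Outside the fold thresholds and whole-number counts, the list raised by the low dose at 9 h ranged from −0.26 to −0.13 and the list lowered from 0.31 to 0.44. Differences in library measures (24 h minus 9 h) without single libraries ranged from 1.13 to 1.94 percentage points on transcripts (exact p under 0.05 without MS-105 or MS-116), from −3.5 to 368.5 transcripts detected (−3.5, a reversal, without MS-119), from −1.67 to −0.74 points in the top 100 (exact p = 0.016 without MS-120) and from −10.2 to −4.06 bases (exact p under 0.05 without MS-101, MS-104 or MS-116). The causes were not tested. The log2 fold changes of ENSRNOT00000005677 and ENSRNOT00000008840 kept their call in all 21 alternatives each, ENSRNOT00000025462 in 20 of 21 and ENSRNOT00000045628 in 12 of 20; its counts are not whole, so the whole-number fit gave no value. No paired analysis was possible because each library number occurs once, so the groups share no replicate number.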
